A study of Mus musculus with 18 samples.

Results

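Kynurenine and nitric oxide metabolism were examined through 10 genes tied to the use of tryptophan or arginine. Ido1, Afmid, Kmo, Kynu and Haao encode enzymes that open and degrade tryptophan along the kynurenine pathway. Slc7a2, Ass1, Nos2, Gch1 and Arg1 encode a transporter and enzymes that supply arginine, convert it to nitric oxide or divert it. They were chosen by gene symbol, and all 10 were found among the 36172 genes of the count table. The libraries came from Cx3cr1-cre/ERT2+; NuTRAP+ mice about 3 months old, given tamoxifen 3 to 4 weeks before they were studied. Once tamoxifen has acted, cells with an active Cx3cr1 promoter carry ribosomes labelled with EGFP, and all groups, controls included, carry both transgenes. Mice received 5 mg/kg LPS or PBS intraperitoneally and brains were taken 24 h later. RNA of the lysate cleared by centrifugation (input) and RNA bound to the tagged ribosomes after anti-GFP pulldown (positive fraction) were sequenced. This gives 4 libraries each of Input PBS, Input LPS and Positive PBS and 5 of Positive LPS. The 17 libraries came from 9 animals, 6 female and 3 male, and held 22968939 to 35123345 counts. The input library of animal 271 held 1252 counts and was left out. The Cx3cr1 promoter also drives the tag in macrophages at the brain borders, so the positive fraction is not microglia alone. Blood monocytes can be labelled too, but they are short-lived, and the study waited between tamoxifen and tissue collection so that labelled ones would be lost.

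The purification was checked with lists of cell type markers. The 8 microglia markers summed to between 9536 and 13661 normalised counts in the input libraries and between 152831 and 224695 in the positive libraries, and 8 of 8 were called higher in the positive fraction of PBS animals. The 6 neuron markers summed to 169096 to 179056 in Input PBS and 174278 to 199776 in Positive PBS, so their sum was similar before and after pulldown. Of these 6, 2 were called higher in the positive fraction and none lower, in PBS as in LPS animals. Gad1 had a mean of 14326 in Input PBS and 26231 in Positive PBS, and Snap25 of 72526 and 68354. The 6 endothelial markers were called higher in the positive fraction for 6 of 6 in PBS animals (median log2 1.497) and 5 of 6 in LPS animals (0.754). The 6 markers of border-associated macrophages were called higher for 6 of 6 in both treatments. The 5 oligodendrocyte markers were called lower for 5 of 5 in both. Which cells gave the enrichment of a single gene was not tested. In these bulk samples fewer cells of a type and less RNA per cell cannot be told apart.

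Tryptophan is degraded mainly along the kynurenine pathway. Ido1 opens the indole ring, Afmid removes the formyl group to give kynurenine, Kmo hydroxylates kynurenine, Kynu cleaves off the side chain, and Haao forms the precursor of quinolinate, an agonist of NMDA receptors from which NAD can be made. Kynurenine aminotransferases instead make kynurenate, which blocks these receptors, and brain phagocytes are regarded as the main site of the quinolinate branch. Arginine enters cells through cationic amino acid transporters such as Slc7a2 and is remade from citrulline by Ass1 and Asl. The inducible synthase Nos2 turns it into nitric oxide and citrulline, and needs tetrahydrobiopterin, whose synthesis starts with Gch1. Arg1 cleaves the same substrate to ornithine and urea.

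The members differed widely in level. Counts were divided by a size factor for each library and, to compare genes with each other, by the summed exon length in kilobases. In Positive PBS, Ass1 was the most abundant, at 665 ± 132 normalised counts per kilobase (SD, n = 4), followed by Slc7a2 at 101 ± 24.5. Afmid (36.3 ± 10.2), Haao (31.7 ± 4.09) and Gch1 (26.6 ± 9.26) came next on that scale and did not differ from each other beyond their spread. Ido1 (11.5 ± 1.84) and Arg1 (11.2 ± 7.34) formed the next level, and Kmo (4.16 ± 1.66), Nos2 (3.05 ± 1.18) and Kynu (1.53 ± 1.14) were the lowest. Kmo and Nos2 lay closer together than their SDs, while Nos2 and Kynu lay slightly further apart than theirs.

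The order changed with fraction and treatment. In Positive LPS, Gch1 followed Ass1 and Slc7a2 at 61.4 ± 9.78 normalised counts per kilobase (SD, n = 5), above Afmid at 27.4 ± 3.53 and Arg1 at 22.3 ± 5.45. Haao, at 16.1 ± 6.88, then lay below Arg1, by less than its own SD and more than that of Arg1. In Input PBS, Ido1 followed Ass1 and Slc7a2 at 28.1 ± 0.726 per kilobase (n = 4), and Haao was near the bottom at 1.70 ± 0.688. Kmo, Kynu and Nos2 did not exceed 20 normalised counts in every library of any group and were not part of the test across genes. The other 7 members passed that filter, as did 14803 genes in all. Arg1 passed only through Positive LPS, Haao only through the positive groups and Ido1 only through the input groups. Comparisons of these 3 members across those groups therefore concern genes admitted by the group where they are high.

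**Figure D1:**
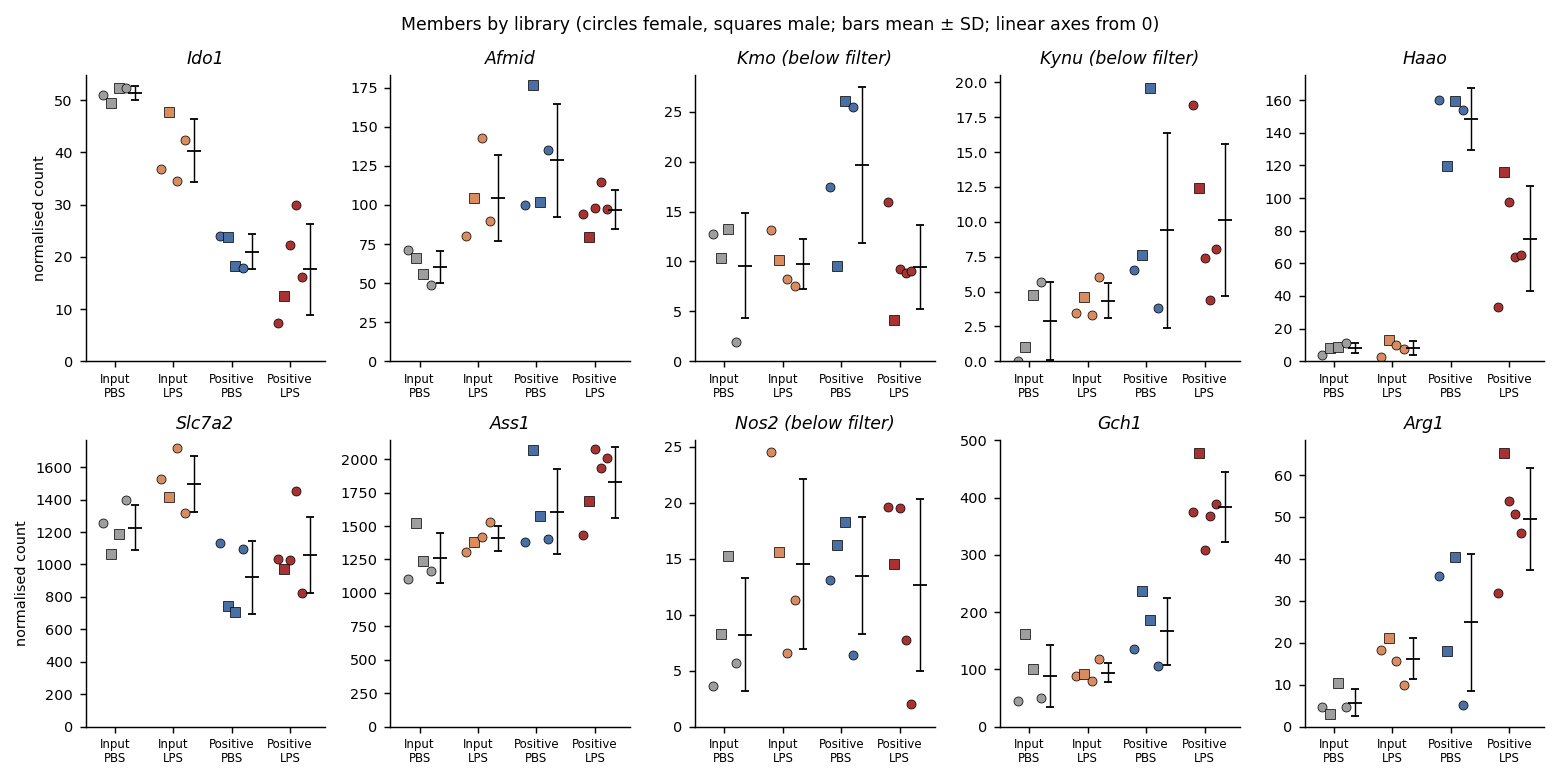
Normalised counts of the 10 members in each of the 17 libraries, in the 4 groups of fraction and treatment; circles are female and squares male animals, and bars are the mean ± SD. Haao is at 33.1 or more in every positive library and at 12.9 or less in every input library, and Gch1 is at 309 or more in every Positive LPS library and at 237 or less in all others.

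The effect of LPS in the positive fraction was measured in RNA enriched for the tagged cells, which also held RNA of other cell types. A gene was called at an adjusted p under 0.05 (edgeR quasi-likelihood test, Benjamini-Hochberg over all genes tested) with a fold change above 1.25. Of the 7 members tested, Gch1 rose and Haao fell, and 5 did not pass. The 2 calls stand against 33.8% of all genes tested in this comparison (19.0% higher and 14.9% lower), and the same 2 members were the ones whose LPS and PBS libraries did not overlap, against 30.1% of all genes. The median log2 change was 0.19 over the 7 members and 0.011 over all genes. The plot of LPS effects shows the intervals for both fractions.

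Gch1, the first and rate-limiting enzyme of tetrahydrobiopterin synthesis (chromosome 14, 47153895 to 47189402, minus strand, GRCm38), rose with LPS. In Positive PBS it had 135, 237, 187 and 106 normalised counts in animals 268, 272, 273 and 506. In Positive LPS it had 375, 479, 309, 368 and 388 in animals 266, 267, 270, 271 and 507. Every LPS library was above every PBS library. The fitted change was 2.30-fold (log2 1.20 ± 0.302 SE, adjusted p = 0.00397). The 30 alternatives run all kept the call, with log2 values from 1.03 to 1.58. Here and below, the alternatives include fits without each of the 17 libraries in turn. Some of these leave out libraries that the contrast does not compare, here those of input, and so test the call less. Among the PBS animals the male libraries (272 and 273) lay above the female ones in both fractions. In a fit of female animals alone, with only 268 and 506 for PBS, the change was still called. An annotated pseudogene lies inside the gene on the same strand, so part of its reads may be shared.

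Haao, the dioxygenase that gives the precursor of quinolinate (chromosome 17, 83831354 to 83846790, minus strand), changed in the opposite direction. Positive PBS libraries held 160.1, 119.9, 159 and 154 normalised counts in animals 268, 272, 273 and 506. Positive LPS libraries held 33.1, 116, 97.4, 64.1 and 65.4 in animals 266, 267, 270, 271 and 507. The groups did not overlap, although the lowest PBS library and the highest LPS library, both from male animals, were close. The fitted level in LPS was 0.510 of that in PBS (log2 -0.97 ± 0.311 SE, adjusted p = 0.0184). When animals 506 and 507 were left out the change was -0.91 with an adjusted p of 0.0971, and over the 30 alternatives the adjusted p ran from 0.00375 to 0.0971. The 6 markers of border-associated macrophages also summed lower, to 3401 to 5675 normalised counts in Positive LPS against 4776 to 9457 in Positive PBS, with 4 of 6 called lower and none at 0 in a whole group. The 8 microglia markers summed to 152831 to 211764 against 182257 to 224695, with 3 of 8 called lower and 2 higher. The part of these cells in the lower level of Haao was not tested.

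The promoters of these 2 genes are shown because they are the members that LPS moved in the positive fraction, in opposite directions. RefSeq promoters on GRCm38.p6 were given for 5 of the 10 members, and the 250 bases before the start are printed 5′ to 3′ on the strand of the gene. Capitals mark matches, on either strand, to any of 9 motifs: the GC box GGGCGG, the pentamer CCAAT, the TATA box TATAAA, the core TGACG of the cAMP response element, the E-box CACGTG, the STAT motif (TTC, any 3 bases, GAA), an NF-kB motif (GGG, any 3 bases, TTCC), an interferon response motif (GAAA, any 2 bases, GAAA) and the PU.1 motif GAGGAAG.
Gch1, chr14:47189414-47189663, minus strand: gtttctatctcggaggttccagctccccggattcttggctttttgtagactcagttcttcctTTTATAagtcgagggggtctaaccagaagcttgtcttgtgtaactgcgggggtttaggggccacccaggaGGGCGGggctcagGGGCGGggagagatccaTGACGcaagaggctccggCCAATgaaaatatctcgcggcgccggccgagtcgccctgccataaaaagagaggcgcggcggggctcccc
Haao, chr17:83846791-83847040, minus strand: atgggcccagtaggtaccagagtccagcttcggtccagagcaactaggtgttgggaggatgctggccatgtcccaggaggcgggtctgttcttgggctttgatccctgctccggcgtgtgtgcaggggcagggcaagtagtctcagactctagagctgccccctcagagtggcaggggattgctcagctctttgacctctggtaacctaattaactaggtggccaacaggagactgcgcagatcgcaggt

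The Gch1 stretch held the GC box GGGCGG at 2 places, the pentamer CCAAT and the core TGACG, with the TATA box TATAAA on the opposite strand (TTTATA as printed), and no matches overlapped. Of the 32841 promoters in the table, 32.7% held the GC box, 33.9% the pentamer, 17.8% the response element core and 12.4% the TATA box within the same length. The Haao stretch held none of the 9. The GC content was 59.2% for Gch1 and 58.4% for Haao, against a median of 52.4%. The matches describe letters in these windows, and a motif that is not matched says nothing about its factor.

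The other kynurenine members tested gave smaller values in the positive fraction. Ido1, the interferon-inducible entry enzyme (chromosome 8, 24584141 to 24597009, minus strand), had 24.0, 23.8, 18.3 and 17.8 normalised counts in Positive PBS (animals 268, 272, 273 and 506) and 7.35, 12.4, 22.3, 29.8 and 16.1 in Positive LPS (266, 267, 270, 271 and 507). The LPS libraries spanned the whole range of the PBS libraries. The log2 change was -0.25 (95% interval -0.89 to 0.39, adjusted p = 0.523), so neither a rise nor a fall was shown at this depth. Afmid, the formamidase (chromosome 11, 117825919 to 117839908, plus strand), had 100.2, 177, 102 and 135 in Positive PBS and 94.3, 79.8, 98.3, 115 and 97.6 in Positive LPS, in the same order of animals. Its LPS libraries lay within or below the range of PBS, and the log2 change of -0.41 did not pass (95% interval -0.86 to 0.038, adjusted p = 0.123).

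Among the arginine members, Arg1, the arginase of alternatively activated macrophages and granulocytes (chromosome 10, 24915207 to 24927470, minus strand), gave the next largest value. Positive PBS libraries held 35.9, 18.1, 40.5 and 5.10 normalised counts in animals 268, 272, 273 and 506. Positive LPS libraries held 31.9, 65.3, 53.8, 50.8 and 46.3 in animals 266, 267, 270, 271 and 507. Of the LPS libraries 4 lay above all PBS libraries, and that of animal 266 lay below 2 of them. The log2 change was 1.00 ± 0.396 SE, just short of the threshold (adjusted p = 0.0513). Arg1 had passed the filter only through Positive LPS, the group where it was highest. With the animal as a random block it was 1.28 with an adjusted p of 0.0258, and it was called in 11 of 30 alternatives, whose adjusted p ran from 0.0251 to 0.162. Leaving out 1 library gave a call for Input PBS 273 (1.00, adjusted p = 0.0489), Positive PBS 268 (1.24, 0.0358), Positive PBS 273 (1.31, 0.0251) or Positive LPS 266 (1.12, 0.0345).

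Ass1, which joins citrulline to aspartate (chromosome 2, 31470270 to 31520670, plus strand), had 1383, 2067, 1574 and 1401 normalised counts in Positive PBS and 1434, 1684, 2077, 1935 and 2009.7 in Positive LPS. The groups overlapped and the change of 0.19 did not pass (95% interval -0.094 to 0.47, adjusted p = 0.263). The highest PBS library decided this, since without Positive PBS 272 the change was 0.33 with an adjusted p of 0.0454, in a range over alternatives of 0.0454 to 0.695. Slc7a2, a carrier of arginine, lysine and ornithine (chromosome 8, 40862367 to 40922070, plus strand), had 1129, 746, 708 and 1096 in Positive PBS and 1030.4, 969.6, 1028, 1452 and 821 in Positive LPS. Here too the groups overlapped (log2 change 0.20, 95% interval -0.14 to 0.55, adjusted p = 0.324).

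**Figure D2:**
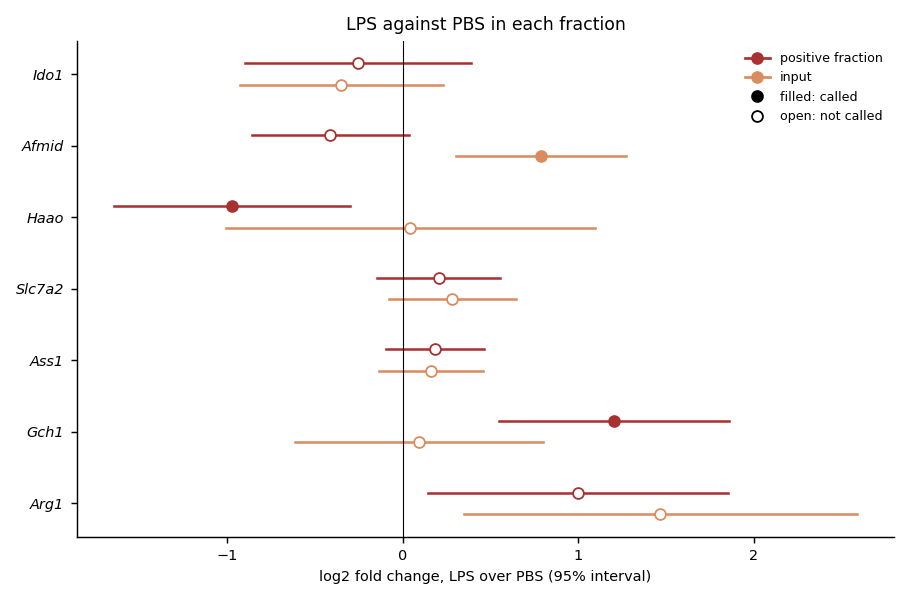
Fitted log2 fold change of LPS over PBS for the 7 members tested, with 95% intervals, shown side by side for positive fraction and input; filled points were called. In the positive fraction Gch1 lies at 1.20 and Haao at -0.97, while in input the filled point is Afmid at 0.79.

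The same contrast in input showed the change in RNA of the lysate before pulldown. Here 1 of the 7 members was called, Afmid, which was higher, against 12.4% of all genes tested (7.16% higher and 5.26% lower). The libraries of Afmid and Ido1 did not overlap between treatments, which held for 24.1% of all genes. The median log2 change of the members was 0.16, against 0.0036 over all genes.

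Afmid had 71.1, 66.0, 56.0 and 48.6 normalised counts in Input PBS (animals 268, 272, 273 and 506) and 80.4, 105, 143 and 89.9 in Input LPS (266, 267, 270 and 507). Every LPS library was above every PBS library. The rise was 1.73-fold (log2 0.79 ± 0.223 SE, adjusted p = 0.0233). It was not called without Input LPS 270 (0.60, adjusted p = 0.0997), Input PBS 273 (0.75, 0.0671) or Input PBS 506 (0.70, 0.0756), in a range over all alternatives of 0.00908 to 0.179. A gene model, Gm20708, covers nearly the whole of Afmid on the same strand, so the assignment of these reads is uncertain. The 6 endothelial markers summed to 1922 to 2905 in Input PBS and 3074 to 4563 in Input LPS, with 2 of 6 called higher, 1 lower and none at 0, and their part in the rise of Afmid was not tested.

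Ido1 held 51.0, 49.5, 52.2 and 52.4 normalised counts in Input PBS and 36.7, 47.8, 34.5 and 42.3 in Input LPS. Each LPS library was below each PBS library, but the log2 change of -0.35 was within the error of the fit (95% interval -0.93 to 0.23, adjusted p = 0.43). Arg1 held 4.56, 3.10, 10.4 and 4.76 in Input PBS and 18.4, 21.1, 15.6 and 9.82 in Input LPS. Only 1 pair of libraries crossed, Input PBS 273 and Input LPS 507, and the change of 1.47 ± 0.518 SE missed the threshold (adjusted p = 0.0684). It was called without Input PBS 273 (1.92, adjusted p = 0.0447) and without Positive PBS 506 (1.47, 0.0245), in a range over alternatives of 0.0245 to 0.26.

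Neutrophil markers, which belong to cells that can hold Arg1, moved with treatment in both fractions. The 10 markers summed to 469 to 850 normalised counts in Input PBS and 769 to 1674 in Input LPS, and to 140 to 327 in Positive PBS and 431 to 1155 in Positive LPS. Of the 6 that passed the filter, 5 were called higher with LPS in each fraction. Ly6g was at 0 in every library and Elane at 0 in every LPS and every positive library. The part of such cells in the values of Arg1 was not tested.

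Gch1 gave 44.7, 161, 99.7 and 49.5 normalised counts in Input PBS (animals 268, 272, 273 and 506) and 87.4, 91.9, 78.8 and 119 in Input LPS (266, 267, 270 and 507). The LPS libraries lay between the female and male PBS libraries, except for 507, which lay above the male animal 273. The log2 change was 0.094 (95% interval -0.61 to 0.80, adjusted p = 0.884). A fit of female animals alone was chosen after this pattern was seen. It held only PBS animals 268 and 506 and LPS animals 266, 270 and 507. The log2 change in it was 1.01 with an adjusted p of 0.0329, in a range over alternatives of 0.0329 to 0.96. With sex as a term in the fit of all animals the change was 0.41 with an adjusted p of 0.327.

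Haao was near the limit of detection in input, at 3.65, 8.25, 8.55 and 11.4 normalised counts in Input PBS and 2.62, 12.9, 9.85 and 7.55 in Input LPS. A count of 3, taken as that limit, was worth 2.27 to 3.92 normalised counts depending on the library. The log2 change of 0.045 therefore had a wide interval, from -1.01 to 1.09 (adjusted p = 0.965). Ass1 ranged from 1103 to 1526 in Input PBS and from 1308 to 1531 in Input LPS (log2 0.16, adjusted p = 0.474). Slc7a2 ranged from 1067 to 1399 and from 1319.8 to 1718 (log2 0.28, adjusted p = 0.285), with overlap in both genes.

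Whether LPS acted differently on the fractions was tested with the interaction of fraction and treatment, in which the LPS effects being compared share no library but do share animals. Of the 7 members, Afmid was called, against 6.88% of all genes tested (5.46% higher and 1.42% lower). That is 1018 genes, or 1985 with the animal as a random block. Its LPS effect, as a log2 value, was lower in the positive fraction than in input (difference -1.20 ± 0.304 SE, adjusted p = 0.021). Without Positive PBS 272, the library with the most Afmid, the difference was -1.001 with an adjusted p of 0.0568, in a range over alternatives of 0.00394 to 0.378. For Gch1 the difference was 1.11 ± 0.443 SE and was not called (adjusted p = 0.159). Taking the animal into account brought it past the threshold, at 1.04 with the animal as a term (adjusted p = 0.0103) and 0.96 with the animal as a random block (0.0368), in a range over alternatives of 0.0103 to 0.595. For Haao the difference of -1.02 was not called (95% interval -2.27 to 0.24, adjusted p = 0.363). The differences of the other 4 members lay between -0.47 and 0.10, with adjusted p between 0.757 and 0.966.

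The comparison of positive fraction and input within a treatment asked which members were enriched by the pulldown. In PBS animals 6 of 7 members were called, 5 higher in the positive fraction and Ido1 lower, against 39.8% of all genes tested (21.0% higher and 18.8% lower). In LPS animals 6 of 7 were also called, 4 higher and 2 lower, against 53.4% (27.6% higher and 25.8% lower). Haao, Arg1 and Ido1 had passed the filter only through the fraction where they were higher, so their calls are not independent of that filter. Libraries of the fractions did not overlap for 3 members in PBS and 4 in LPS animals, against 45.7% and 45.3% of all genes.

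Haao was the most enriched member. It was 18.4-fold higher in the positive fraction of PBS animals (log2 4.20 ± 0.412 SE, adjusted p = 1.45e-07) and 9.10-fold higher in LPS animals (3.19 ± 0.394 SE, adjusted p = 1.76e-06). Within animals, the log2 ratio with 1 added to each normalised count was 5.12, 3.71, 4.07 and 3.64 in PBS animals 268, 272, 273 and 506, and 3.23, 3.08, 3.18 and 2.96 in LPS animals 266, 267, 270 and 507. The ranges did not overlap, but the ratios rest on input values of only 2.62 to 12.9 normalised counts. The interaction above is the test of this difference, and it was not called for Haao (-1.02, adjusted p = 0.363). The 8 microglia markers had a median fitted enrichment of 4.22 (PBS) and 4.03 (LPS).

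Arg1 was 4.25-fold higher in the positive fraction of PBS animals (log2 2.09 ± 0.510 SE, adjusted p = 0.00272) and 3.07-fold higher in LPS animals (1.62 ± 0.403 SE, adjusted p = 0.00212). Its ratio within animals was uneven in PBS, from 0.08 in animal 506 to 2.73 in animal 268. Gch1 was 1.89-fold higher in PBS (log2 0.91 ± 0.325 SE, adjusted p = 0.0281) and 4.06-fold higher in LPS animals (2.02 ± 0.312 SE, adjusted p = 2.33e-05). Each of the 8 animals with both libraries had more Gch1 in the positive fraction, with log2 ratios of 0.56 to 1.58 in PBS and 1.70 to 2.37 in LPS animals. The PBS call was lost without Input PBS 268 (0.69, adjusted p = 0.0926), Input PBS 506 (0.72, 0.0931), Positive PBS 272 (0.69, 0.114) or Positive PBS 273 (0.86, 0.0645), in a range over alternatives of 0.000251 to 0.114.

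Afmid was enriched in PBS animals and not in LPS animals. In PBS it was 2.13-fold higher in the positive fraction (log2 1.09 ± 0.224 SE, adjusted p = 0.000666), with ratios within animals of 0.49, 1.41, 0.85 and 1.46. In LPS animals the ratios were 0.23, -0.39, -0.53 and 0.12, and the fitted value of -0.11 was not called (95% interval -0.55 to 0.34, adjusted p = 0.668). The interaction above is the test of that difference.

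Ass1 was slightly higher in the positive fraction, by 1.28-fold in PBS (log2 0.35 ± 0.137 SE, adjusted p = 0.0425) and 1.30-fold in LPS animals (0.38 ± 0.130 SE, adjusted p = 0.0183). Its ratio was above 0 in 8 of 8 animals. The PBS call was not kept without any 1 of 6 libraries (Input PBS 268, 273 or 506, Input LPS 267, Positive PBS 272 or 273; values 0.21 to 0.36, adjusted p = 0.0505 to 0.204), and the LPS call was not kept without Input LPS 266 (0.34, adjusted p = 0.0548). With the deposited scaling neither was called, at 0.21 in PBS (adjusted p = 0.162) and 0.26 in LPS animals (0.0623). That scaling included the nearly empty input library of animal 271 and rests on 582 genes, against 15766 for the main scaling.

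Ido1 and Slc7a2 were the members with less RNA after pulldown. Ido1 in the positive fraction was 0.413 of input in PBS (log2 -1.28 ± 0.289 SE, adjusted p = 0.00152) and 0.441 of input in LPS animals (-1.18 ± 0.274 SE, adjusted p = 0.00123), and 8 of 8 animals showed that direction. Slc7a2 was lower by less, at 0.709 of input in LPS animals (log2 -0.50 ± 0.158 SE, adjusted p = 0.0117). In PBS animals its value of -0.42 ± 0.169 SE missed the threshold (adjusted p = 0.0514), and with the animal as a term or as a random block it was -0.44 in both fits (adjusted p = 0.00062 and 0.00349, in a range over alternatives of 0.00062 to 0.416). The scaling deposited by the authors shifted the median enrichment of all genes, from -0.00 to -0.13 for PBS animals and from -0.03 to -0.14 for LPS animals, and no member called under the main scaling changed direction with it.

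**Figure D3:**
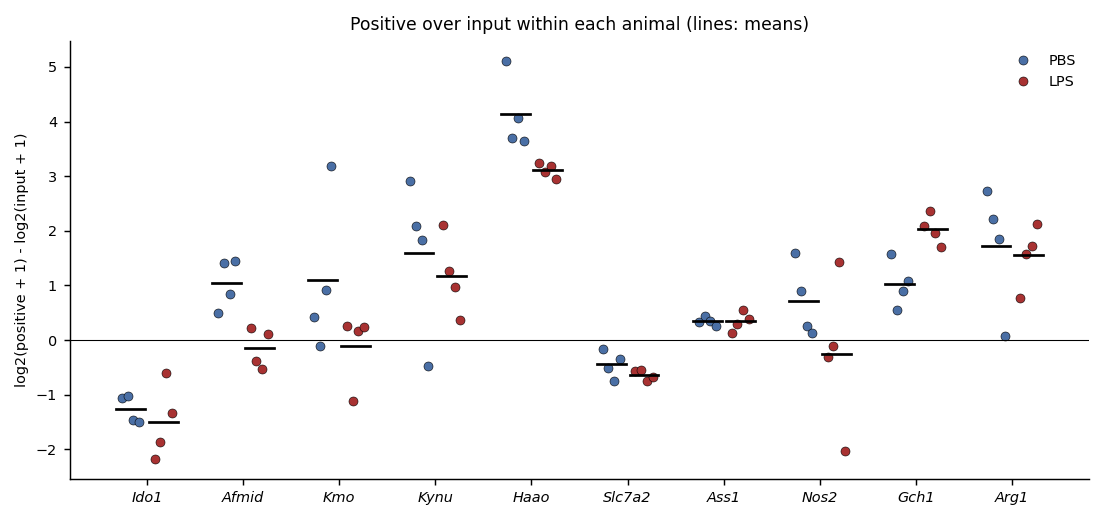
Log2 ratio of positive fraction to input within each of the 8 animals with both libraries, with 1 added to each normalised count, for the 10 members; lines are means of 4 PBS or 4 LPS animals. Haao lies between 2.96 and 5.12, Ido1 lies below 0 in every animal, and Gch1 in LPS animals (1.70 to 2.37) lies above Gch1 in PBS animals (0.56 to 1.58).

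Kmo, Kynu and Nos2 were detected at low counts. Kmo, which commits kynurenine to the quinolinate branch (chromosome 1, 175632193 to 175660853, plus strand), had 17.4, 9.52, 26.1 and 25.5 normalised counts in Positive PBS and 15.9, 4.14, 9.27, 8.84 and 9.05 in Positive LPS. The groups overlapped through animal 272 of the PBS group. The mean difference was -10.2 normalised counts, with a two-sided exact permutation p of 0.0317 that became 0.19 after adjustment over the 6 tests of these genes. The smallest p that 5 against 4 libraries allow is 0.0159, and in input, with 4 against 4, it is 0.0286. In input Kmo ranged from 1.91 to 13.3 with PBS and from 7.55 to 13.1 with LPS (exact permutation p = 0.943).

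Kynu, which removes the side chain of kynurenine and its hydroxylated form (chromosome 2, 43555329 to 43682715, plus strand), ranged from 3.82 to 19.6 normalised counts in Positive PBS and from 4.42 to 18.4 in Positive LPS (exact permutation p = 0.825). In input it was at 0, 1.03, 4.75 and 5.72 with PBS and 3.50, 4.59, 3.28 and 6.04 with LPS (p = 0.371 by the same exact test), close to the limit of detection. Nos2, the inducible nitric oxide synthase (chromosome 11, 78920859 to 78960124, plus strand), ranged from 6.37 to 18.3 in Positive PBS and from 2.01 to 19.6 in Positive LPS (exact permutation p = 0.905). In input it held 3.65, 8.25, 15.2 and 5.72 with PBS and 24.5, 15.6, 6.57 and 11.3 with LPS (exact permutation p = 0.229). None of the 6 tests had an adjusted p below 0.19. A single gene at the smallest p these group sizes allow could not pass the threshold after adjustment over the 6 tests, so the lack of a call says nothing about whether these genes changed.

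Other genes of the same pathways were taken from lists, and 71 were in the table, of which 64 passed the filter. In the positive fraction 17 of the 64 rose and 11 fell with LPS, beside 33.8% of all genes called in either direction (19.0% higher and 14.9% lower). In input 7 rose and 4 fell, beside 12.4% (7.16% higher and 5.26% lower). The counts of each list below stand against these same shares. Their median log2 change was 0.044 after pulldown and -0.014 in input. The plot of pathway genes shows them by list.

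Of 10 other kynurenine and NAD enzymes tested, 2 rose and 1 fell in the positive fraction, and 2 rose in input. Qprt, which takes the quinolinate made after Haao into NAD synthesis, fell from 60.4 ± 13.5 normalised counts (SD, n = 4) to 27.3 ± 3.18 (n = 5) in the positive fraction (log2 -1.14 ± 0.280 SE, adjusted p = 0.00335), and in input was 22.6 ± 10.5 and 25.1 ± 8.49 (n = 4 each, adjusted p = 0.786). It was also enriched in the positive fraction of PBS animals (log2 1.42, adjusted p = 0.000877). Ccbl2, one of the kynurenine aminotransferases that make kynurenate, rose in both fractions, from 169 ± 32.1 to 300.2 ± 32.4 in the positive fraction (log2 0.83, adjusted p = 0.000161) and from 151 ± 18.8 to 239.8 ± 17.9 in input (0.67, 0.00469). Tdo2, the other enzyme that opens tryptophan, rose in input from 44.6 ± 9.64 to 91.9 ± 28.0 (log2 1.04, adjusted p = 0.0427), but not with the animal as a random block (0.92, adjusted p = 0.0529) nor without any 1 of 8 libraries. Nmnat3, a late enzyme of NAD synthesis, rose in the positive fraction by 0.66 (adjusted p = 0.0336), but not without any 1 of 5 libraries (Positive PBS 268, 272 or 273, Positive LPS 270 or 271; adjusted p up to 0.112). Ido2, a relative of Ido1, was not called in any of these comparisons, with 31.6 ± 7.84 in Positive PBS and 50.8 ± 16.4 in Positive LPS (adjusted p = 0.0706).

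Of 6 genes tested for the aryl hydrocarbon receptor, its partner, repressors and target, and the kynurenate receptor, 4 rose in the positive fraction and none fell, against 19.0% of all genes called higher. The other 2, Arnt (log2 0.31, adjusted p = 0.0475) and Ahrr (0.49, adjusted p = 0.282), were not called, Arnt for its fold change alone. Cyp1a1, also in the list, did not pass the filter, with group means of 0.952 to 4.30 normalised counts. In input 2 of 6 rose, against 7.16%. Gpr35, a receptor of kynurenate, rose from 87.9 ± 8.92 normalised counts in Positive PBS to 273 ± 55.6 in Positive LPS (log2 1.63 ± 0.169 SE, adjusted p = 6.4e-07) and from 26.4 ± 4.84 to 46.9 ± 2.04 in input (0.83, adjusted p = 0.00726, and 0.78 with 0.0696 when the animal was a random block). Cyp1b1, a target of the aryl hydrocarbon receptor, rose in both fractions, by 1.23 in the positive fraction (adjusted p = 4e-05) and by 1.84 in input (3.06e-06). Tiparp, a repressor of that receptor and also its target, rose by 0.83 in the positive fraction (adjusted p = 0.000823), and Ahr itself, named after its values were seen, by 0.80 (0.00061). Arnt, the partner of the receptor, was lower in the positive fraction than in input of PBS animals (log2 -0.85, adjusted p = 2.81e-05). Ahr (-0.75, adjusted p = 0.00118) and Tiparp (-0.47, 0.0385) were also lower there, and Gpr35 was higher (1.73, 7.63e-07). In LPS animals Ahr (-0.053) and Tiparp (0.20) were not called between fractions. In the difference between fractions none of the 6 was called with edgeR or limma and 1 with DESeq2, and 4 had an unadjusted p under 0.05.

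Of 8 genes of tryptophan transport and other tryptophan enzymes tested, Slc36a4 (log2 0.57, adjusted p = 0.0132) and Slc3a2 (0.33, 0.00685) rose in the positive fraction. The change of Slc3a2 lay near the fold threshold, and was not above it without Positive PBS 268 (0.32), Positive PBS 272 (0.31) or Positive LPS 271 (0.25). Slc7a8 (log2 1.17, adjusted p = 2.73e-09) and Slc7a5 (0.89, 7.13e-06), light chains of the large neutral amino acid transporters that carry tryptophan and kynurenine, were higher in the positive fraction than in input of PBS animals.

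Other enzymes that make or recycle tetrahydrobiopterin were examined beside Gch1. Pcbd1, a recycling dehydratase, fell in the positive fraction (log2 -0.76, adjusted p = 0.046), a call that was lost in 21 of 30 alternatives, among them the random block (-0.69, 0.0545) and the removal of Positive PBS 272 (-0.47, adjusted p = 0.236). Spr, the last enzyme of synthesis, was higher in the positive fraction than in input of PBS animals (log2 0.50, adjusted p = 0.00383). Qdpr, which regenerates tetrahydrobiopterin, fell in input from 6275 ± 1631 to 3219.5 ± 415 (log2 -0.96, adjusted p = 7.13e-05) and in the positive fraction was 3490.0 ± 202 and 3291 ± 236. The 5 oligodendrocyte markers summed to 55515 to 84404 in Input LPS against 87589 to 140158 in Input PBS, 5 of 5 called lower, and their part in the fall of Qdpr was not tested.

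Nitric oxide synthases and the citrulline cycle gave 1 gene higher and 4 lower among 7 tested in the positive fraction. Of all genes, 19.0% were called higher and 14.9% lower there. Asl, which completes arginine recycling after Ass1, rose from 789 ± 56.1 to 1278 ± 166 normalised counts (log2 0.70 ± 0.124 SE, adjusted p = 0.000231). Ddah2, which degrades methylated arginines that inhibit the synthases, fell from 746 ± 63.1 to 347 ± 40.9 (log2 -1.10 ± 0.131 SE, adjusted p = 3.32e-06), and Ddah1 fell by less (-0.40, 0.00156). Nostrin, a binding partner of the endothelial synthase, fell from 297 ± 92.3 to 146 ± 60.1 (log2 -1.02, adjusted p = 0.00392). Nos1, the neuronal synthase, fell from 1232 ± 246 to 773 ± 80.8 (log2 -0.67, adjusted p = 0.00326). The 6 neuron markers summed to 174278 to 199776 in Positive PBS and 133526 to 180946 in Positive LPS, with 2 of 6 called lower and none at 0, and their part in the fall of Nos1 was not tested. Nos1 and Ddah1 lay outside the rule for named genes and were chosen after their values were seen. In input, Nos3 rose from 196 ± 24.0 to 345 ± 114 (log2 0.82, adjusted p = 0.0408), but not with the random block (0.69, 0.0757) nor without any 1 of 9 libraries, beside the endothelial sums given for Afmid. In PBS animals Nostrin (log2 1.24) and Nos3 (1.19) were higher in the positive fraction than in input. Endothelial markers in the positive fraction summed to 5521 to 8598 with PBS and 5460 to 8690 with LPS, with Cldn5 called higher and Flt1 and Tek lower, and their part in the fall of Nostrin was not tested.

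Carriers of cationic amino acids other than Slc7a2 numbered 4, and in the positive fraction 2 rose and 1 fell. Slc7a7, a light chain that exchanges cationic amino acids, rose from 589 ± 90.7 to 1185 ± 319 normalised counts (log2 1.01 ± 0.210 SE, adjusted p = 0.000934) and was the most enriched carrier, with a log2 enrichment over input of 3.11 in PBS animals (adjusted p = 8.81e-09). Slc7a6 rose from 384 ± 56.3 to 705 ± 83.4 (log2 0.87, adjusted p = 9.73e-05), and Slc7a3 fell from 367 ± 60.6 to 264 ± 31.6 (-0.47, 0.00786). Slc7a6 was lower in the positive fraction than in input of PBS animals (-0.93). In female animals alone, with only 268 and 506 for PBS, Slc7a7 gave 0.75 (adjusted p = 0.0912) and Slc7a3 -0.33 (0.212). Neither was called.

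Downstream of arginase, 5 of 17 genes of arginine breakdown and polyamines rose and 1 fell in the positive fraction. Srm, spermidine synthase, rose from 1288 ± 71.2 to 2141 ± 289 normalised counts (log2 0.73 ± 0.0991 SE, adjusted p = 1.37e-05), and Azin1, an activator of ornithine decarboxylase, from 5104 ± 333 to 7699 ± 2047 (0.59, adjusted p = 0.00201). Gamt, the last enzyme of creatine synthesis, fell in the positive fraction from 260.3 ± 18.2 to 105 ± 32.5 (log2 -1.31, adjusted p = 0.000133) and in input from 285 ± 74.6 to 102 ± 31.5 (-1.48, 0.000247). Gatm, which starts creatine synthesis from arginine, fell in input from 4474 ± 802 to 1987 ± 219 (log2 -1.17, adjusted p = 2.53e-06), beside the lower oligodendrocyte sums given above. Sat1, which acetylates polyamines, rose in input by 0.49 (adjusted p = 0.00744) and was higher in the positive fraction of PBS animals by 1.43 (1.11e-08), as was Paox, a polyamine oxidase, by 1.30 (1.32e-06).

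Of 6 genes that receive nitric oxide or carry its cGMP signal, 3 fell in the positive fraction and none rose, against 14.9% of all genes called lower, and the other 3 had log2 changes of -0.42 to -0.13 that were not called. Prkg1, a kinase activated by cGMP, fell from 547 ± 98.4 to 322 ± 29.6 normalised counts (log2 -0.77, adjusted p = 0.000184) and by 0.47 in input (adjusted p = 0.0314). The input call was lost without Input PBS 268, Input PBS 506, Input LPS 270 or Input LPS 507 (-0.47 to -0.38, adjusted p = 0.0639 to 0.109). Pde5a, which breaks cGMP down, fell from 1168 ± 299.9 to 698 ± 161 (-0.74, adjusted p = 0.0106), and Gucy1a3, a subunit of the nitric oxide receptor, from 2316 ± 174 to 1804 ± 198 (-0.36, 0.00402). Without Positive LPS 270 the change of Gucy1a3 was -0.30 and under the fold threshold. Gucy1a2, another subunit, was lower in the positive fraction than in input of PBS animals (-0.65, adjusted p = 0.000553), and Prkg2 gave -0.45 there (adjusted p = 0.0715, and 0.00611 with the random block). Mural cell markers, which belong to cells rich in this pathway, summed to 1111 to 1859 in Positive PBS and 887 to 1082 in Positive LPS, with 1 of 6 called lower and Acta2 at 0 in every library, and their part in these values was not tested.

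**Figure D4:**
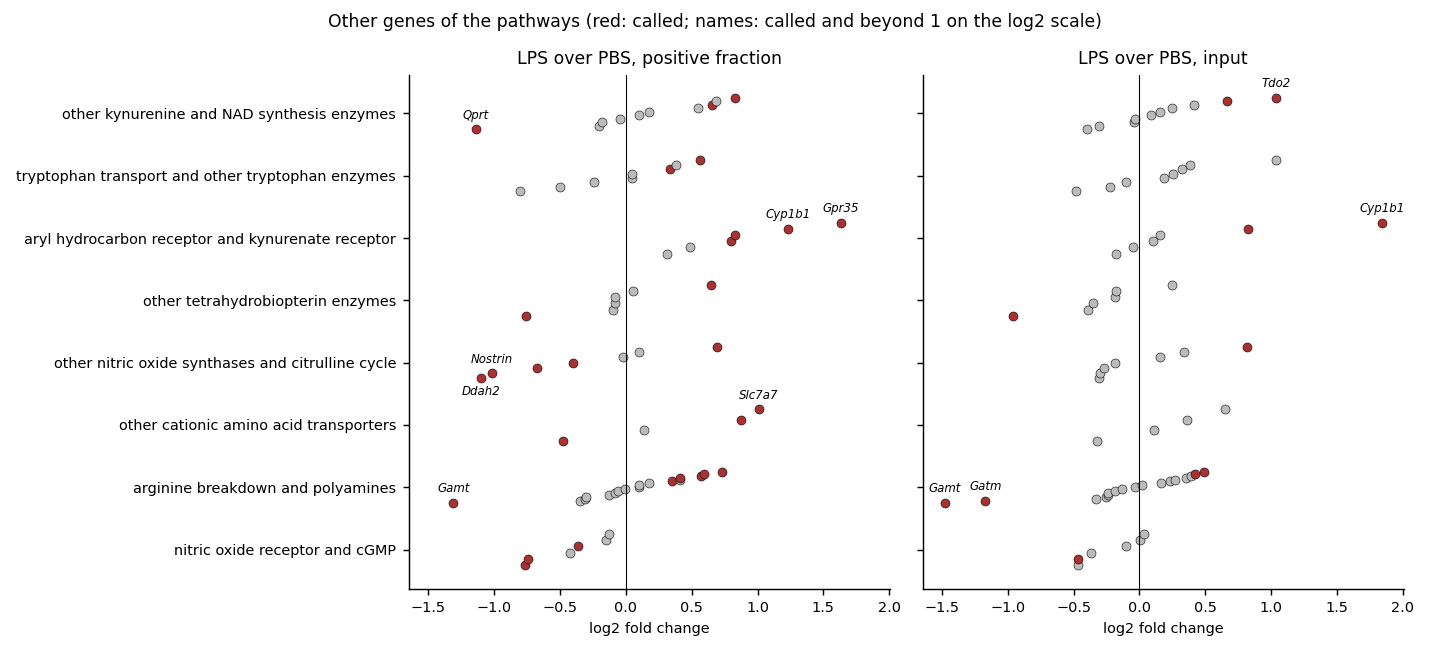
Log2 fold change of LPS over PBS for the 64 other pathway genes that passed the filter, by list and by fraction; red points were called, and names are given beyond 1 on the log2 scale in either direction. Gpr35 lies highest in the positive fraction at 1.63 and Cyp1b1 in input at 1.84, while Gamt is lowest in both.

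The genes most similar to each member were found by the correlation of log2(normalised count + 1) over the 17 libraries, which share fraction, treatment and animal, so the values are descriptions. Haao was followed by Parvg (r = 0.978), Arhgap27 (0.974) and Ctsd (0.973). Gch1 was followed by 2700060E02Rik (0.949), Hsbp1 (0.947) and Mrpl20 (0.946). Arg1 was followed by Clec14a (0.912), Gm6548 (0.889) and Icosl (0.888). The 3 genes nearest to Ido1 were Edil3 (0.937), Gpm6a (0.933) and Tmem47 (0.933). Ass1 was nearest to Wdr6 (0.945), Rwdd2a (0.923) and Usp5 (0.921), and Slc7a2 to Frs2 (0.949) and Twsg1 (0.934). Afmid had the least similar neighbours, Tm4sf1 (0.805), Casc3 (0.779) and Txnip (0.765).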

How the data were processed

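Input and positive-fraction RNA was sequenced from hemisected mouse brain with a directional NEBNext Ultra II kit. The authors trimmed and aligned the reads in Strand NGS against mm10, quantified RefSeq gene models and normalised with DESeq. They deposited estimated counts, of which 81.7% of the nonzero values were not whole, and log2 values, which were the counts over DESeq size factors, floored at 1, minus the median of Input PBS. Their size factors covered all 18 libraries, with the nearly empty one, and so rest on the 582 genes counted in each. Here the estimated counts were rounded, and 15766 genes stood behind the size factors of the 17 libraries. Genes above 20 normalised counts in every library of at least 1 group were tested with edgeR 4.0.16 (quasi-likelihood, 1 mean per group, median-of-ratios size factors of 0.766 to 1.32) in R 4.3.3, with limma 3.58.1, DESeq2 1.42.0 and other settings as alternatives. The script was tested on simulated data. The detection limit of 3 counts covers counting error only.

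Libraries of 1 animal, paired by the labels, deviated together (correlation 0.16 to 0.519 in 8 animals). Kmo, Kynu and Nos2 were compared by exact permutation. Named pathway genes were the 3 called genes of each list with the largest LPS effect in each fraction and the 2 with the largest difference between fractions in PBS animals, beside the 3 genes best correlated with each member; some are not reported here. Exon lengths came from GENCODE on GRCm38, while counts were on RefSeq models. The members and lists were chosen with earlier results of these data known. Animals were killed by cervical dislocation or perfused with PBS, and which animals had which was not given in the sources used here. Sex and treatment were crossed only partly (3 males). Replicates are separate animals.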

Additional observations from a re-analysis of the deposited data

Results flagged for a closer look

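Among 40 groups of member values examined for a library far from the others, 1 was flagged, and chance flags about 1 in 20 groups. It was Haao in Positive PBS animal 272, at 119.9 normalised counts, where the other 3 libraries of the group held 154, 159 and 160.1.

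Of the 71 members and other pathway genes tested, 6 were called for a different response to LPS in input and positive fraction, by edgeR's interaction term, against 6.88% of all genes. For Afmid the effect was lower in the positive fraction than in input (log2 difference -1.20, adjusted p = 0.021). For Ddah2 it was also lower (-0.91, adjusted p = 0.00616), with Ddah2 at 746 ± 63.1 and 347 ± 40.9 normalised counts in Positive PBS (n = 4) and Positive LPS (n = 5), and 374 ± 40.4 and 329 ± 69.0 in Input PBS and Input LPS (n = 4 each). For Srm it was higher in the positive fraction (0.98, adjusted p = 0.000392), with 1128 ± 122 and 948 ± 62.1 in input. For Gatm (1.04, adjusted p = 0.000747) and Qdpr (0.88, adjusted p = 0.00615) the positive difference stands beside a fall in input and no call in the positive fraction. Slc25a15, a mitochondrial ornithine carrier named here after its values were seen, had a difference of 0.59 (adjusted p = 0.0247), at 307 ± 31.3 in Positive PBS, 391 ± 48.3 in Positive LPS, 449 ± 32.3 in Input PBS and 379 ± 16.8 in Input LPS.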

How the results depend on the processing

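Over the alternatives, 954 of 1047 values of the members kept direction and call, 33 gained a call, 32 lost one and 28 changed direction, and of 1440 values of other named genes 1349 kept direction and call, 83 lost the call and 8 gained one. With the animal as a random block 1985 genes differed between fractions, with the animal as a term 1914, against 1018 without a block, and members called rose from 1 to 2 in both. In the paired fits no other member call changed but those of Arg1, Slc7a2 and Gch1 given above. Without the animals numbered in the 500s, members called were 1 for LPS in the positive fraction, 0 in input and 0 for the difference, and 1083 genes (of 1839) were called in input and 323 for the difference. The fit of female animals alone, chosen after seeing the data, held only 268 and 506 for PBS. There 740 genes were called in input and 75 for the difference. Members called were 3 for positive over input in PBS animals and 0 for the difference. For LPS in input 2 members were called with DESeq2 and 2 with sex as a term. Leaving out each library in turn gave 0 to 2 members called in input and 0 to 1 for the difference. The cause of these changes was not tested. For several of these fits the share of all genes called is not given here, so the member counts only describe how calls moved. Changes of direction were in results that the main fit put between -0.11 and 0.20 as log2 values. For Kmo, Kynu and Nos2 the main differences that reversed were between -0.81 and 0.75 normalised counts. Some alternative values lay further from 0. Haao in input was -0.032 with limma, -0.046 with the deposited log2 values, -0.050 with the random block and -0.15 in females. Ido1 in the difference was -0.016, -0.022 and -0.083 in the first 3 of these and -0.18 with the animal as a term. Slc7a2 was -0.040 for LPS in the positive fraction in females. Without the 500s animals Gch1 in input was -0.24, Kmo in input -1.65 normalised counts and Kynu in the positive fraction -0.584. Leaving out 1 library gave -0.13 to 0.54 for Gch1 and -0.23 to 0.33 for Haao in input, -0.22 to 0.079 for Afmid between fractions in LPS animals, and for the difference -0.081 to 0.17 (Ass1), -0.16 to 0.28 (Ido1) and -0.21 to 0.034 (Slc7a2). It gave -2.38 to 1.42 normalised counts for Kmo in input, -1.31 to 4.15 for Kynu and -3.18 to 1.85 for Nos2 in the positive fraction. The share of called genes higher in the positive fraction was 52.8% (PBS) and 51.7% (LPS), and 37.0% and 41.1% with the deposited scaling. Depth limits Kmo, Kynu, Nos2 and input values of Haao and Arg1, where 3 counts are worth 2.27 to 3.92 normalised counts.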
